A study of Homo sapiens with 4 samples.

Results

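A set of 10 genes of iron and heme handling were followed in Kasumi-1, an established human acute myeloid leukemia (AML) cell line, after knockdown of ANP32B, an acidic nuclear phosphoprotein that binds histones. The members were chosen by name, with earlier results of these data known: TFRC, FTH1, FTL, SLC40A1, SLC11A2, HMOX1, ALAS1, FECH, IREB2 and NCOA4. All 10 were found among the 18567 genes of the deposited table, and all 10 had at least 1 TPM (a transcript level scaled to the length of the transcript and to the total of its own sample) in each of the 4 samples. RNA was sequenced from 2 controls (NC) and from 2 samples in which a short hairpin RNA lowered ANP32B (sh-ANP32B). According to the labels the controls had no treatment and no hairpin, but a control hairpin appears in the study's methods, so any effect of lentiviral infection and puromycin selection cannot be told apart from that of the knockdown. Which of the study's ANP32B hairpins each knockdown sample carried is not given in the sources used here, and no label says that the 2 samples of a group came from separate cultures. The methods make a general statement that experiments were repeated independently, without naming the sequencing, so p-values measure only the spread between these samples, which may be technical.

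Iron enters most cells bound to transferrin through the transferrin receptor, and what is not used at once is stored inside ferritin, a shell of heavy and light chains. In the mitochondrion iron is built into heme and into iron-sulfur clusters, and heme oxygenase releases it again when heme is broken down. The iron regulatory proteins hold these steps together: when iron is scarce they bind a short hairpin, the iron-responsive element (IRE), which blocks translation when it lies in the 5′ untranslated region (UTR) and protects the mRNA from decay when it lies in the 3′ UTR. RNA sequencing measures the mRNA level and does not measure translation of ferritin.

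IREs that match a fixed pattern are shown because the iron regulatory proteins bind such hairpins, with the UTR that holds each. The reference transcript (MANE Select, GENCODE 44) of each member was searched for a C, 5 bases, the loop CAGTGN with a last base other than G, and 5 bases that all pair with the first 5, G-T pairs allowed. The search found 7 hairpins in 4 of the 10 members, and 0.976% of 19061 reference transcripts held at least 1. They are given 5′ to 3′ on the strand of the gene, with T for U and the loop in capitals.
FTH1 5′ UTR, exon 1, chr11:61967580-61967596 (hg38, minus strand): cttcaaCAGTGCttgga
FTL 5′ UTR, exon 1, chr19:48965341-48965357 (hg38, plus strand): cttcaaCAGTGTttgga
SLC40A1 5′ UTR, exon 1, chr2:189580667-189580683 (hg38, minus strand): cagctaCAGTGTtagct
TFRC 3′ UTR, exon 19, chr3:196050985-196051001 (hg38, minus strand): cggaagCAGTGCcttcc
TFRC 3′ UTR, exon 19, chr3:196050581-196050597 (hg38, minus strand): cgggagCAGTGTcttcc
TFRC 3′ UTR, exon 19, chr3:196050516-196050532 (hg38, minus strand): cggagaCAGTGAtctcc
TFRC 3′ UTR, exon 19, chr3:196050469-196050485 (hg38, minus strand): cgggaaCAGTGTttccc
Between the 17 bases of FTH1 and those of FTL there was 1 difference, C12T, counted from the 5′ end with the base of FTH1 first. The pattern was not found in the reference transcripts of SLC11A2, HMOX1, ALAS1, FECH, IREB2 and NCOA4, which says only that these letters are not in those transcripts.

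In each pair of values below, replicate 1 comes first and replicate 2 second. The targeted gene ANP32B stood at 383.8 and 392 TPM in the controls against 51.8 and 41.2 TPM in the knockdown samples, a mean of 11.99% of NC (log2 fold change -3.04 in limma, SE 0.150, adjusted p 0.00516). MYC, the gene that the study follows, had a log2 fold change of -1.18 (limma, SE 0.137, adjusted p 0.0261). Fold changes are on the scale of log2(TPM + 1), positions are on hg38, and an adjusted p is over all genes tested. Over these 16817 genes the median log2 fold change was 0.08, and the values below are to be read against it. Of 8 blast markers for the line 6 had values, whose sum was 412.6 and 394.9 TPM in the controls against 560.9 and 523.2 TPM in the knockdown samples, with 0 called by limma. RUNX1T1, the partner of RUNX1 in the fusion of this line, ANPEP and PTPRC had log2 fold changes of 0.77, 0.61 and 0.59 (limma adjusted p 0.0632, 0.0581 and 0.115), and CD33 and RUNX1 0.14 and 0.15 (limma adjusted p 0.619 and 0.530). KIT, for which this line is known, was low at 1.55 to 3.41 TPM, which goes against the label, and the other markers of that kind, CD34 and MPO, were not analysed here. Mitochondrial genes took 12.9% and 13.1% of TPM in the controls and 11.4% and 8.43% in the knockdown samples. With these genes left out, the members' median log2 fold change was 0.31 against 0.36 as reported, and that of all genes 0.04 against 0.08. Any part of the mitochondrial genes beyond this scaling was not tested. Of 13 erythroid markers only KLF1 had values, between 0.233 and 2.24 TPM, and the other 12 were not analysed here.

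The heavy and light chains of ferritin were the most abundant members in every sample. FTH1 (ENSG00000167996, chromosome 11, 61959718 to 61967634, minus strand) encodes the heavy chain, which oxidizes iron for storage. It had 1597 TPM in NC replicate 1, 1594 TPM in NC replicate 2, 3117 TPM in sh-ANP32B replicate 1 and 3031 TPM in sh-ANP32B replicate 2. Both knockdown samples stood far above both controls, and within each group the replicates lay close together. From a control mean of 1596 ± 2.26 TPM the level rose 1.93-fold to 3074 ± 60.8 TPM (both SD, n = 2). Its log2 fold change was 0.95 (limma, SE 0.121, 95% interval from 0.66 to 1.23, adjusted p 0.0304), and FTH1 was the only member with an adjusted p under 0.05. Among all genes tested, 2.14% were called higher and 1.18% lower by the same rule, a balance that turned to 1.40% and 1.75% by median-of-ratios scaling. The fold change stayed between 0.92 and 0.97 when any 1 sample was left out, but the limma adjusted p was 0.119 without NC replicate 1, 0.133 without NC replicate 2 and 0.114 without the abundance trend of limma, a fit that called 0 of all genes. Of all genes 2.02% and 1.73% were called without NC replicate 1 and 2, and 24.5% and 20.7% without sh-ANP32B replicate 1 and 2, so calls gained in these last 2 fits stand beside a larger background.

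FTL (ENSG00000087086, chromosome 19, 48965309 to 48966879, plus strand) encodes the light chain, which supports the formation of the iron core. Its level was 7890 TPM in NC replicate 1, 7715 TPM in NC replicate 2, 11921 TPM in sh-ANP32B replicate 1 and 12308 TPM in sh-ANP32B replicate 2. The groups were again well apart, with means of 7802 ± 124 and 12114 ± 273 TPM (SD, n = 2 each), a ratio of 1.55. The log2 fold change of 0.63 (SE 0.135, 95% interval 0.31 to 0.96) had a limma adjusted p of 0.0577 and did not pass. It lay at the threshold, since the limma adjusted p was 0.0486 with a pseudocount of 0.1 TPM and 0.0494 with mitochondrial genes left out, whereas it was 0.0855 after GC correction, 0.481 without NC replicate 1 and 0.544 without NC replicate 2. Leaving out sh-ANP32B replicate 1 or 2 gave 0.000932 and 0.00194, with log2 fold changes of 0.66 and 0.61.

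Together FTH1 and FTL made up 0.950% and 0.932% of all TPM in NC replicates 1 and 2, and 1.51% and 1.54% in sh-ANP32B replicates 1 and 2. The ratio of FTH1 to FTL, which no scaling factor of a sample can change, was 0.202 and 0.207 in NC and 0.261 and 0.246 in sh-ANP32B. It was higher in both knockdown samples than in both controls. The mean ratio was 0.205 ± 0.00296 in NC and 0.254 ± 0.0107 in sh-ANP32B (SD, n = 2 each). No permutation test was run on it, because 2 against 2 samples allow no exact two-sided p below 0.333.

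Both chains have processed copies in the genome with which they can share reads, so their exact levels are uncertain. The table held 7 FTH1 copies, whose summed level was 0.537% to 0.726% of the level of FTH1 and these copies together in the 4 samples. It held 1 FTL copy, which made up 0.128% to 0.154% of its own sum. On the opposite strand FTH1 overlaps BEST1, and the sources used here do not say if reads were counted by strand. BEST1 had 8.97 and 9.96 TPM in the controls against 13.1 and 29.8 TPM in the knockdown samples, less than a hundredth of the level of FTH1 in each sample.

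**Figure D1:**
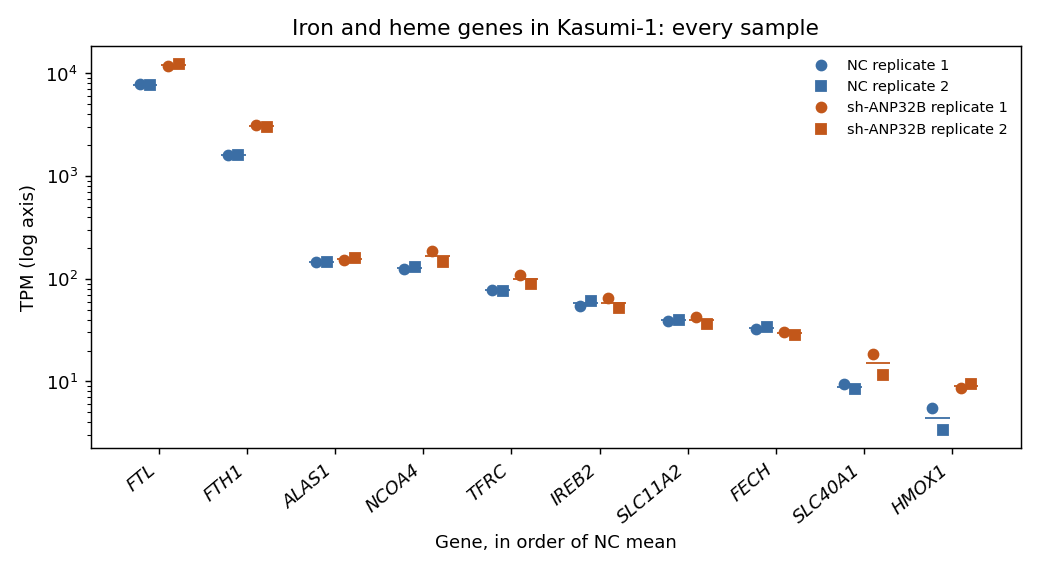
TPM (log axis) of the 10 iron and heme genes in every sample, ordered by the NC mean, with NC in blue, sh-ANP32B in orange, replicate 1 as circles, replicate 2 as squares and horizontal lines for the group means (n = 2 each). FTL and FTH1 stand above the other 8 genes, and in both the orange points (11921 and 12308 TPM for FTL, 3117 and 3031 TPM for FTH1) lie above the blue ones.

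NCOA4 (ENSG00000266412, chromosome 10, 46005088 to 46030623, minus strand) encodes the receptor that carries ferritin to the lysosome, where its iron is released. It had 126 and 130.5 TPM in the controls against 185.7 and 146.3 TPM in the knockdown samples. Both knockdown samples were above both controls, and replicate 2 lay nearer to the controls than to replicate 1. The log2 fold change was 0.36 (limma, SE 0.153, 95% interval from -0.01 to 0.72, adjusted p 0.217). It was 0.19 without sh-ANP32B replicate 1 and 0.53 without sh-ANP32B replicate 2, where the limma adjusted p was 0.00658.

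Of the 2 members that bring iron into the cytosol, TFRC (ENSG00000072274, chromosome 3, 196012511 to 196082153, minus strand) encodes the transferrin receptor. Its level was 78.6 and 76.2 TPM in the controls against 109.97 and 89.4 TPM in the knockdown samples. The groups did not overlap, and the difference between the knockdown samples exceeded the distance from replicate 2 to the controls. The log2 fold change was 0.35 (SE 0.150, 95% interval -0.01 to 0.71) with a limma adjusted p of 0.217, and without sh-ANP32B replicate 2 it was 0.50 with a limma adjusted p of 0.0114. Without sh-ANP32B replicate 1 it was 0.21 (limma adjusted p 0.177).

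SLC11A2 (ENSG00000110911, chromosome 12, 50979401 to 51028566, minus strand) encodes DMT1, which moves iron out of the endosome. It had 39.2 and 40.1 TPM in the controls against 42.6 and 36.1 TPM in the knockdown samples, so that both control samples lay between the knockdown samples. Its log2 fold change of -0.02 (limma, SE 0.154, 95% interval from -0.38 to 0.35, adjusted p 0.969) did not exceed the spread between replicates.

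SLC40A1 (ENSG00000138449, chromosome 2, 189560590 to 189583758, minus strand) encodes ferroportin, the iron exporter of the cell surface. It was a low gene, with 9.42 and 8.42 TPM in the controls against 18.5 and 11.7 TPM in the knockdown samples. Both knockdown samples were above both controls, with replicate 1 well above replicate 2. On average its log2 fold change was 0.67 (limma, SE 0.252, 95% interval from 0.07 to 1.27, adjusted p 0.176). That size rested on sh-ANP32B replicate 1, as it was 0.36 without it (limma adjusted p 0.240) and 0.98 without sh-ANP32B replicate 2 (limma adjusted p 0.0112).

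Among the members of heme turnover, HMOX1 (ENSG00000100292, chromosome 22, 35380361 to 35394214, plus strand) encodes the inducible heme oxygenase. It was the lowest member, at 5.49 and 3.37 TPM in the controls against 8.63 and 9.43 TPM in the knockdown samples. The knockdown samples lay close together and above both controls, which differed from each other. Mean levels of 4.43 ± 1.50 TPM for the controls and 9.03 ± 0.569 TPM for the knockdown (both SD, n = 2) gave a log2 fold change of 0.91, with SE 0.264, a 95% interval from 0.28 to 1.54 and a limma adjusted p of 0.105. Its fold change was 1.20 without NC replicate 1 and 0.63 without NC replicate 2, with limma adjusted p of 0.118 and 0.608.

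ALAS1 (ENSG00000023330, chromosome 3, 52198086 to 52214327, plus strand) encodes the enzyme of the first step of heme synthesis outside the erythroid lineage. It had 146.8 and 146.5 TPM in the controls against 153.1 and 159.8 TPM in the knockdown samples. The knockdown samples were slightly above the controls, and the log2 fold change of 0.09 (limma, SE 0.121, 95% interval from -0.20 to 0.38, adjusted p 0.698) was close to the median of all genes. Its direction turned to below 0 after median-of-ratios scaling and after GC correction.

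FECH (ENSG00000066926, chromosome 18, 57544377 to 57586732, minus strand) encodes ferrochelatase, which puts iron into heme in the last step. It was the only member whose knockdown samples were both below the controls, with 32.3 and 33.8 TPM in the controls against 30.7 and 28.2 TPM in the knockdown samples. Its log2 fold change was -0.16 (limma, SE 0.150, 95% interval from -0.52 to 0.20, adjusted p 0.567) and did not pass the test.

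IREB2 (ENSG00000136381, chromosome 15, 78437431 to 78501453, plus strand) encodes iron regulatory protein 2, a binder of the IREs shown above that is degraded when iron is plentiful. Its level was 54.7 and 61.0 TPM in the controls against 65.2 and 52.3 TPM in the knockdown samples, and the groups overlapped. The log2 fold change was 0.01 (limma, SE 0.163, 95% interval from -0.38 to 0.40, adjusted p 0.973), and its sign depended on the scaling between samples. The regulation of IREB2 by iron acts on the protein, which was not measured.

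As a group, 8 of the 10 members had a log2 fold change above 0, where 57.9% of all genes did, and the median of the members was 0.36 against 0.08 for all genes. By median-of-ratios scaling 6 of 10 were above 0, and the median was 0.26 against 0.0006 for all genes. The members' median was 0.20 without sh-ANP32B replicate 1 and 0.52 without sh-ANP32B replicate 2, against 0.07 and 0.09 for all genes. In 7 members both knockdown samples were above both controls, where 33.2% of all genes showed this, and in 1 member both were below, where 21.4% did. FTH1, FTL, SLC40A1 and HMOX1 had an unadjusted p under 0.05, 4 members higher and 0 lower, where 15.0% of all genes were higher and 8.72% lower at that level. The same 4 also exceeded 0.5 on the log2 scale, the second part of the criterion used in the study, which 12.1% of all genes met upward and 6.55% downward. By median-of-ratios scaling 3 members met it, all upward, against 8.93% of all genes upward and 8.97% downward. The criterion was applied to p-values from limma, as DESeq2 needs counts. These are counts over a short list chosen with earlier results known.

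**Figure D2:**
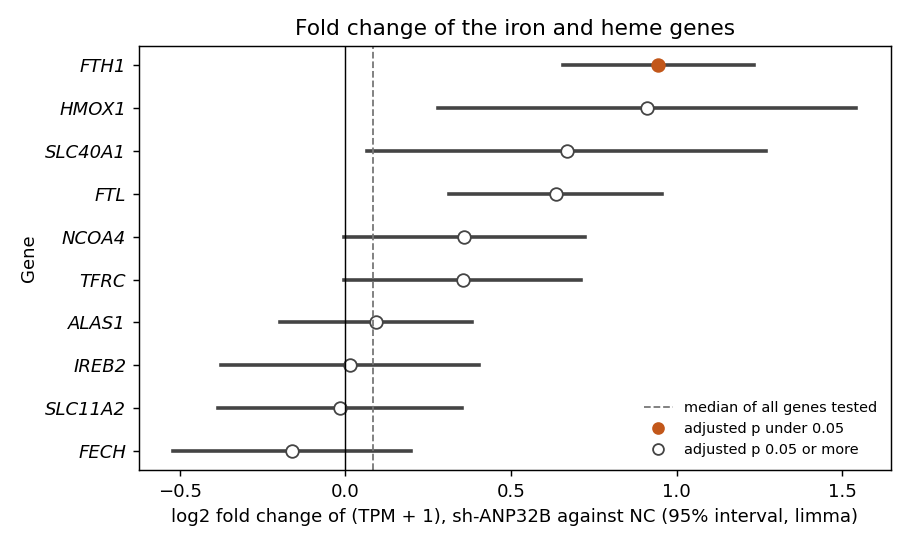
Log2 fold change of (TPM + 1) of each member in sh-ANP32B against NC, with the 95% interval from limma (n = 2 each). FTH1, the filled point at 0.95, had an adjusted p under 0.05, the intervals of HMOX1, FTL and SLC40A1 lie above 0 without passing the adjustment, and those of NCOA4, TFRC, ALAS1, IREB2, SLC11A2 and FECH include 0.

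In the order of levels, which TPM allows because it is per length, NC ran from FTL through FTH1, ALAS1, NCOA4, TFRC, IREB2, SLC11A2, FECH and SLC40A1 to HMOX1. The ranges of the 2 replicates did not overlap between any neighbours in NC. FTL stood 4.89 times as high as FTH1, FTH1 10.9 times as high as ALAS1, and SLC40A1 2.01 times as high as HMOX1. In sh-ANP32B the order was the same except that NCOA4 had a higher mean than ALAS1, and the ranges of this pair overlapped.

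The members differed in how far the 2 knockdown samples stood apart, and this moved with the GC content of their longest transcript. In the 6 members with the lowest GC content, IREB2, TFRC, SLC40A1, NCOA4, SLC11A2 and FECH at 38.2% to 43.4%, replicate 2 was below replicate 1 in all 6, by a log2 difference from -0.11 for FECH to -0.62 for SLC40A1. In the 4 others, FTH1, ALAS1, FTL and HMOX1 at 49.96% to 58.5%, the difference was between -0.04 and 0.12. This split of the members was made after their values were seen. Between the NC samples the widest difference was that of HMOX1, with -0.57. The same relation was present across 15427 genes, with a Spearman rho of 0.577 between GC content and the difference of the knockdown samples and of -0.206 for the NC samples, which describes the libraries. After GC correction the log2 fold changes of FTH1, FTL, HMOX1 and ALAS1 were 0.88, 0.48, 0.72 and -0.0035. As reported these were 0.95, 0.63, 0.91 and 0.09. Those of TFRC and NCOA4 after GC correction were 0.34 and 0.34 with limma adjusted p of 0.0407 and 0.0454, in a fit that called 16.4% of all genes. Both calls were lost when the replicate block was added to the correction, with limma adjusted p of 0.0787 and 0.0845. The part of GC content in the values as reported was not tested.

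**Figure D3:**
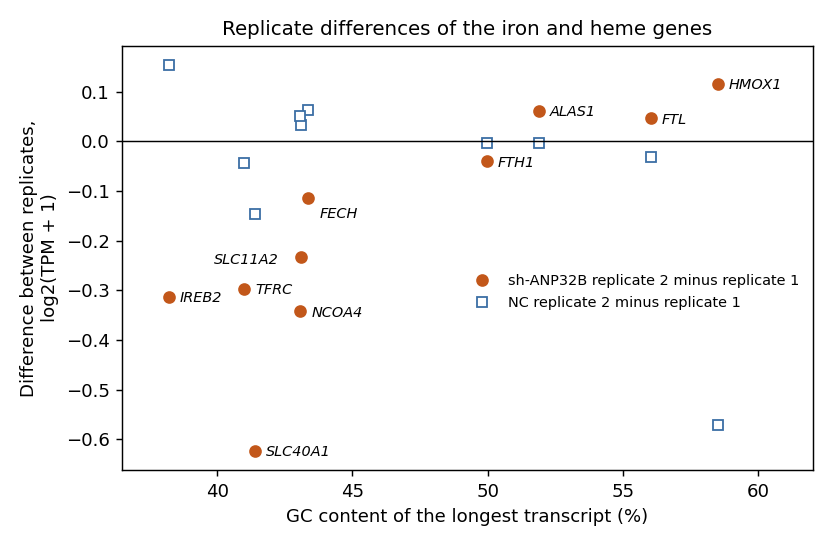
Difference between replicates in log2(TPM + 1), replicate 2 minus replicate 1, against the GC content of the longest transcript for the 10 members, with sh-ANP32B as filled orange circles carrying the gene names and NC as open blue squares. The 6 genes under 44% GC all lie below 0 in sh-ANP32B, down to -0.62 for SLC40A1, while FTH1, ALAS1, FTL and HMOX1 lie between -0.04 and 0.12, and the lowest NC square, at -0.57, is HMOX1.

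The other genes of iron and heme handling were taken from 8 lists by role, which with the members hold 85 genes reported here, of which 68 were tested and 17 were not analysed here. An adjusted p under 0.05 was reached by 2 higher genes, FTH1 and ABCB6, and by 1 lower gene, BOLA3. This is 3 of 68, where 3.32% of all genes were called in either direction. Without the members the lists had 28 genes with a log2 fold change above 0 and 30 below, with a median of -0.01, against 0.36 for the members. Members and lists were chosen with earlier results of these data known, so this contrast only describes the chosen genes.

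Of the 8 genes of heme synthesis reported here, 0 were called by limma, against 3 higher and 1 lower at an unadjusted p under 0.05, and their median was 0.01. At that level 15.0% of all genes were higher and 8.72% lower. CLPX, a mitochondrial unfoldase that acts on ALAS enzymes, had a log2 fold change of -0.67 (limma, SE 0.151, adjusted p 0.0636) and PPOX, which makes protoporphyrin, 0.54 (limma, SE 0.136, adjusted p 0.0793). Outside the rule for named genes and chosen after their values were seen, ALAD, the second enzyme, and CPOX, which acts just before PPOX, had log2 fold changes of 0.44 and 0.54 with limma adjusted p of 0.136 and 0.0736. Other enzymes of the list, UROS and UROD, went the other way, with -0.25 and -0.08 (limma adjusted p 0.357 and 0.785). In this list 4 genes had a log2 fold change above 0 and 4 below. The first and last enzymes, ALAS1 and FECH, did not pass, as given above.

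In mitochondrial transport 1 of the 7 genes reported here was called. ABCB6, a porphyrin transporter, rose from 3.10 and 2.65 TPM in the controls to 9.32 and 7.51 TPM in the knockdown samples, 2.93-fold (log2 fold change 1.28 in limma, SE 0.241, adjusted p 0.0459). It lay close to the threshold and lost its call under each other scaling between samples. The limma adjusted p was 0.0507 by median-of-ratios scaling, 0.0513 by upper-quartile scaling and 0.0590 by quantile normalization. It was 0.0515 with mitochondrial genes left out and 0.0517 with ferritin and mitochondrial genes left out of the total. Of 13 alternatives with all samples, 7 kept the call. SLC25A37, the iron importer mitoferrin, had a log2 fold change of 0.46 and TMEM14C, which takes part in the passage of porphyrins into the mitochondrion, 0.42, with limma adjusted p of 0.0905 and 0.111. The median over the 7 genes was 0.16.

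Of the 24 genes of iron-sulfur cluster assembly, BOLA3, which helps to pass clusters to mitochondrial enzymes, was the only one called. It had 33.4 and 36.2 TPM in the controls against 13.4 and 18.3 TPM in the knockdown samples, and fell to 45.5% of NC (log2 fold change -1.10 in limma, SE 0.195, adjusted p 0.0440). HSPA9, the mitochondrial chaperone of the pathway, had a log2 fold change of -0.58 and HSCB, its co-chaperone, 0.45, with limma adjusted p of 0.0647 and 0.210. In this list 10 genes had a log2 fold change above 0 and 14 below, with a median of -0.08. BOLA3 and ABCB6 both lost their call when either NC sample was left out, with limma adjusted p between 0.0566 and 0.134, and without the abundance trend, with limma adjusted p between 0.114 and 0.116.

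Iron uptake, sensing, export and heme breakdown held 0 called genes by limma, against 2 higher and 1 lower at an unadjusted p under 0.05 in uptake, 1 higher in sensing, 1 higher in export and 2 higher in heme breakdown. At that level 15.0% of all genes were higher and 8.72% lower. The export gene was the member SLC40A1, and the count of heme breakdown included the member HMOX1. In uptake 3 of 9 genes had a log2 fold change above 0 and 6 below, with a median of -0.11. MCOLN1, an iron and calcium channel of the lysosome, and TF, transferrin itself, had 0.61 and 0.53 (limma adjusted p 0.198 and 0.206). Lower genes named after seeing their values were STEAP3, TFR2 and SLC39A14, at -0.53, -0.47 and -0.35 (limma adjusted p 0.141, 0.346 and 0.220). All 7 genes of iron sensing and regulation had a log2 fold change above 0, where 57.9% of all genes did, with a median of 0.25. In 4 of the 7 both knockdown samples were above both controls, where 33.2% of all genes showed this. ACO1, at 0.07, lay below the median of all genes, 0.08. IREB2, at 0.01, was below 0 under 7 alternatives with all samples. Those with the largest values were EPAS1, a hypoxia factor, with 0.77 and NFE2L2, which turns on ferritin and HMOX1 under oxidative stress, with 0.41 (limma adjusted p 0.120 and 0.212). In storage the iron chaperones PCBP1 and PCBP2 had 0.28 and -0.15 (limma adjusted p 0.301 and 0.481). Of the 7 genes of heme breakdown and transport, BLVRB, a biliverdin reductase, had 0.40 and FLVCR1, a heme exporter, -0.22 (limma adjusted p 0.144 and 0.564).

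Several of these values rested on 1 library. NFE2L2 was 0.19 without sh-ANP32B replicate 1 and 0.62 without sh-ANP32B replicate 2, PCBP1 0.44 and 0.12, and FLVCR1 -0.40 and -0.04. MCOLN1 was 0.87 without NC replicate 1 and 0.35 without NC replicate 2. Of the 14 named genes of the lists that are no members and were not called, 9 passed without sh-ANP32B replicate 1 (BLVRB, CLPX, EPAS1, HSPA9, MCOLN1, PCBP1, PPOX, SLC25A37 and TMEM14C) and 6 without sh-ANP32B replicate 2 (CLPX, HSPA9, NFE2L2, PPOX, SLC25A37 and TMEM14C), where 24.5% and 20.7% of all genes were called.

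**Figure D4:**
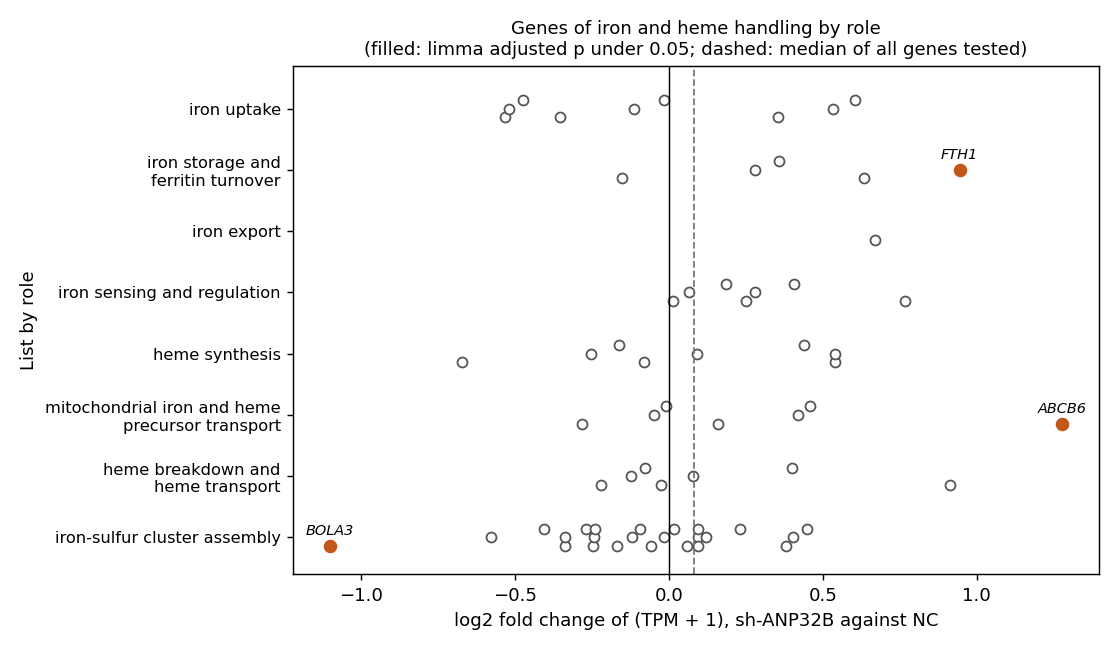
Log2 fold change of (TPM + 1) in sh-ANP32B against NC for the tested genes reported here from the 8 role lists, each gene a circle (n = 2 samples per group), filled and named where the limma adjusted p was under 0.05, with a dashed line at the median of all genes, 0.08. FTH1 (0.95) and ABCB6 (1.28) lie to the right, and BOLA3 (-1.10) to the left.

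Macrophages hold much ferritin, HMOX1 and ferroportin, so their markers are given beside these genes. Of 10 macrophage markers 4 had values, whose summed level was 70.9 and 93.7 TPM in the controls against 130.9 and 209.4 TPM in the knockdown samples. CD68 made up most of this, and the complement gene C1QA had 1.01 and 0.918 TPM in the controls against 4.14 and 7.90 TPM in the knockdown samples (log2 fold change 1.78 in limma, SE 0.342, adjusted p 0.0479). CSF1R and MARCO had log2 fold changes of 0.19 and 0.72 (limma adjusted p 0.724 and 0.289), and CD163, MRC1, CD14, C1QB, C1QC and VSIG4 were not analysed here. The summed lymphoid markers, 3 of 8 with values, were 134.1 and 118.1 TPM for the controls, 110.4 and 150.95 TPM for the knockdown samples, and overlapped. The part of these markers in the ferritin values was not tested, and in bulk samples more cells of a type and more RNA per cell cannot be told apart.

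**Figure D5:**
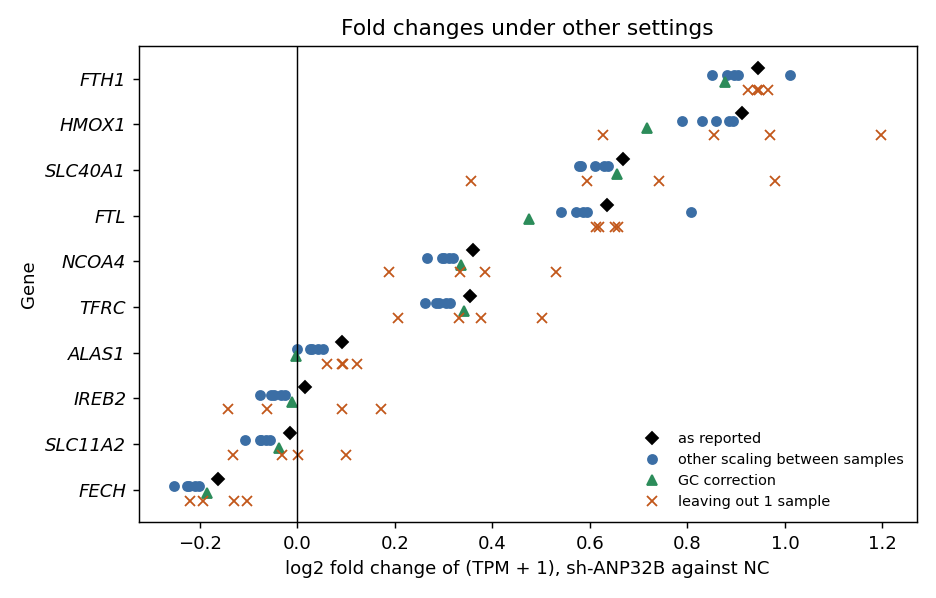
Log2 fold change of (TPM + 1) of each member as reported (diamonds), under 5 planned and added scalings between samples (blue circles), after GC correction (green triangles) and with each of the 4 samples left out (orange crosses). FTH1 stays between 0.85 and 1.01, SLC40A1 spreads from 0.36 to 0.98, and IREB2, SLC11A2 and ALAS1 lie on both sides of 0.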

How the data were processed

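RNA of 2 NC and 2 sh-ANP32B samples of Kasumi-1 was sequenced, and the authors aligned the reads to hg38 with HISAT2 2.0.5. The deposited values are TPM, a unit identified from the columns, which sum to between 997812 and 998314. The counting program, annotation and filter are not given in the sources used here, and as TPM keeps no depth, the depth of the samples is unknown and no counting interval was computed. Symbols, positions and transcripts were taken from GENCODE 44 (hg38), which held 16986 of the 18567 gene IDs.

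A gene was tested if 2 or more samples reached 1 TPM. Values were taken as log2(TPM + 1), which understates the change of low genes, and sh-ANP32B was compared with NC by limma 3.58.1 with an abundance trend (R 4.3.3). Two-sided p-values received the Benjamini-Hochberg adjustment over all 16817 genes tested. The fit was first tested on simulated data with known changes. Alternatives were another pseudocount, other filters, other scalings between samples, a correction for GC content, a replicate block, a fit without the trend and leaving out each sample in turn.

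Some genes of the role lists are not reported here and enter none of the lists' counts or medians, though they stayed in the fit. The members and lists were chosen with earlier results of these data known. Named genes are the members, ANP32B, MYC, each gene called in a role list and, in lists with under 2 calls, up to 2 others with the largest fold change and a mean of at least 5 TPM. The replicate numbers come from the titles. As a check of pairing, deviations from the group mean were correlated across genes between samples of the same number, with r = -0.0925 (Spearman rho -0.168).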

Additional observations from a re-analysis of the deposited data

How the results depend on the processing

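With 2 samples per group and unknown depth, calls near the threshold depend on the fit. As reported, 1 member (FTH1) passed the adjusted p. That number became 2 at a pseudocount of 0.1 TPM, 2 when mitochondrial genes were left out, 3 after GC correction (1 if a replicate block was added to it), 2 in the fit with a replicate block, 3 when that block was crossed (chosen after seeing the data, like leaving ferritin out of the total) and 0 if limma had no abundance trend, where 0 of all genes passed and 4 members had an unadjusted p under 0.05. Dropping any 1 sample gave 0 to 5, with the lone sample assumed to vary like the other group: 0 without NC replicate 1, 0 without NC replicate 2, 2 without sh-ANP32B replicate 1 and 5 without sh-ANP32B replicate 2. By the study's criterion 4 members passed, and 3 to 4 under every alternative with all samples, or 1 to 6 with a sample dropped. In the role lists the 3 calls became 16 after GC correction, 7 if a replicate block was added to that correction, 9 in the crossed pairing, 0 if no trend was used, and 0 to 22 with a sample dropped. The share of all genes called moved too, from 3.32% to 16.4%, 11.7%, 11.9% and 0.00% in these 4 fits and to 1.73% to 24.5% with a sample dropped. With all samples the share called was 2.82% at a pseudocount of 0.1 TPM, 3.12% with mitochondrial genes left out and 8.76% with a replicate block. The same-numbered samples share only a number.

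Directions turned only in 3 members near 0. IREB2, 0.01 in the report, took the value -0.0777 by median-of-ratios scaling, -0.0475 by upper-quartile scaling, -0.0343 when mitochondrial genes were left out, -0.0552 by quantile normalization, -0.0119 by GC correction, -0.0119 if a replicate block joined that correction, -0.0255 when ferritin and mitochondrial genes were both left out of the total, and -0.14 to 0.17 with a sample dropped. ALAS1, 0.09 in the report, took the value -0.0011 by median-of-ratios scaling and -0.0035 by GC correction, block or not. SLC11A2 ranged from -0.13 to 0.10 with a sample dropped. Other filters, a replicate block alone and a fit without the trend leave fold changes as they are, so direction could not turn there. Of 476 values of 28 named genes under alternatives, these fits included, 407 kept direction and side of the threshold. The causes of these shifts were not tested.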
